A study of Mus musculus with 24 samples.

Results

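The circadian clock genes Per1, Per2, Per3, Ciart, Dbp, Tef, Nr1d1, Nr1d2, Arntl and Npas2 were followed in RNA-seq libraries from the healing back skin of diabetic mice. These 10 genes, picked by symbol from the 54232 genes of each count table, were all measured, and 10 of 10 passed the low-count filter that left 18978 genes for testing. The list was drawn up with earlier results of these data in view, and which measurement led to the choice is not recorded, so the group differences and correlations of the members below are descriptions and are not independent of that choice. Each of the 24 libraries came from a 6 mm full-thickness punch wound on the back of a male C57BLKS/J mouse of the genotype Lepr (db/db). These mice lack a working leptin receptor and are obese and diabetic. Mice were wounded at 16 weeks of age, and wound tissue was collected on day 10 at a labelled age of 17.5 weeks. Wounds were covered with an alginate bandage, renewed on day 3. The bandage was a control (Ctrl, 6 libraries) or held medium conditioned by primary macrophages polarized to M0 (CM0, 4 libraries), M1 (CM1, 4 libraries), M2a (CMA, 5 libraries) or M2c (CMC, 5 libraries). There was no unwounded skin and no non-diabetic mouse among these libraries. The sources used here do not state the time of day at which tissue was taken, so its part in any value below was not tested. Replicates are taken as separate wounds, since the sources used here do not say whether libraries share a mouse or a batch of medium.

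The mammalian clock is a transcriptional feedback loop that runs in nearly every cell, skin cells included. Arntl (BMAL1), paired with CLOCK or with its paralog NPAS2, binds E-box sequences and drives the Per and Cry genes, the repressor Ciart, the nuclear receptor genes Nr1d1 and Nr1d2 (REV-ERB alpha and beta) and the transcription factor gene Dbp. PER and CRY proteins shut that drive off, and the REV-ERB proteins repress Arntl and Npas2 through ROR elements. DBP and its relatives TEF and HLF act on D-box sequences, which some Per genes carry. Transcripts of the BMAL1-driven arm therefore normally peak at another time of day than those of Arntl and Npas2. The question put to the libraries was whether the bandages differed in clock gene level, and whether the 2 arms varied together or against each other from wound to wound.

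The sequences that these factors read are visible in the start regions of several members. RefSeq windows from 250 bases before to 50 bases after an annotated start on GRCm38.p6 were found for 9 of the 10 members, in 12 windows, and 32851 windows of all genes served as background. The 4 stretches below were chosen because their windows hold an E-box or D-box. They are printed 5′ to 3′ on the gene's strand, outside annotated exons, with E-boxes (CACGTG) and D-boxes (TTATGNAA, either strand) in capitals.
Ciart, chr3:95882252-95882478, minus strand: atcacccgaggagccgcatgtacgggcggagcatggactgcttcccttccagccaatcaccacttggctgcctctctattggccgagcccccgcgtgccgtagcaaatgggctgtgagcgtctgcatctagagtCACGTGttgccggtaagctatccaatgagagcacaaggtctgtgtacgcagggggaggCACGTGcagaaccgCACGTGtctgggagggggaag
Per3, chr4:151044666-151044915, minus strand: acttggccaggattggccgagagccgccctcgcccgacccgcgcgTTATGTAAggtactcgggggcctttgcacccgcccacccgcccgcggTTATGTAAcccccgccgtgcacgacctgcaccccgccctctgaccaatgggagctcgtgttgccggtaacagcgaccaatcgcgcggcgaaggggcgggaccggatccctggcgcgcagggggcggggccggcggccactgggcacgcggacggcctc
Per1, chr11:69098699-69098947, plus strand: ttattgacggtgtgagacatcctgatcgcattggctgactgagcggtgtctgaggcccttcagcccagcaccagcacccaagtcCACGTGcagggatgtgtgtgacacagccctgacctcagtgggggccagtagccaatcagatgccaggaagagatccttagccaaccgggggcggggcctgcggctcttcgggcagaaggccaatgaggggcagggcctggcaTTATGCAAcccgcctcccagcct
Tef, chr15:81811164-81811413, plus strand: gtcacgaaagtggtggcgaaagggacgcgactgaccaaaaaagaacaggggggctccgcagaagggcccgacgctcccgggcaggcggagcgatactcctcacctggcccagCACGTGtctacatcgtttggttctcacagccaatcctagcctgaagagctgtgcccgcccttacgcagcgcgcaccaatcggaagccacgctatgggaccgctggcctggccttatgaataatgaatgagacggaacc

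Ciart held 3 E-boxes, at positions -116, -58 and -44, where the annotated start is position 1. At least 1 E-box was found in 7.15% of all windows and at least 3 in 0.0883%. Per1 held an E-box at -166 and a D-box at -24. Tef held 1 E-box in each of its 2 windows, at -127 and -138. Per3 had no E-box in its window but 2 D-boxes, at -205 and -158, against at least 1 D-box in 3.38% and at least 2 in 0.161% of all windows. The related E′-box (CACGTT, either strand, 4.68% of windows) was met in Nr1d1, and the ROR element core TAGGTCA (2.61% of windows) was met in Arntl, the gene on which the REV-ERB proteins act. The form TGGGTCA (3.98% of windows) was in no member's window. These 2 sites are shown with their motif in capitals.
Nr1d1, chr11:98775392-98775413, minus strand, motif at -28: cagatctcAACGTGccggctgc
Arntl, chr7:113207533-113207555, plus strand, motif at 31: gcagaaagTAGGTCAgggacgga

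A motif match is a description of the letters only. No binding was measured, and the windows of Dbp, Nr1d2 and Npas2 held none of these motifs.

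Levels are given as CPM, read counts put on the same library size once library composition was corrected for. Total counts ran from 7267879 to 11985292 per library, so that the lowest member count was 22 reads, for Ciart, and the highest 2098, for Tef. Compared per kilobase of exon, mean levels ran from 1.22 to 19.3 CPM per kb. Tef (19.3 CPM per kb), Per1 (17.9), Nr1d2 (17.8) and Nr1d1 (17.7) were highest, followed by Dbp (11) and Per3 (10.8). Per2 (5.17), Arntl (2.93), Ciart (2.37) and Npas2 (1.22) were lowest. The median within-group SD of log2 CPM was 0.269 over the members and 0.265 over all genes tested. Single members ran from 0.143 (Nr1d2) to 0.349 (Per1), and genes were not matched by level. The widest span between single wounds was that of Per2, 3.79-fold, and the narrowest that of Nr1d2, 1.59-fold. In whole tissue, fewer cells of a type and less RNA per cell cannot be told apart.

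The library kit is taken as carrying no strand, which was not tested, so a gene overlapping a member on the opposite strand could alter its count in either direction. Shared exon bases made up 18.01% of the exon length of Dbp (with Sphk2), 8.55% of Nr1d1 (with Thra), 2.45% of Tef (with Gm17597) and 0.44% of Arntl (with Gm45355). Across the 24 libraries Nr1d1 and Thra had Pearson r = 0.42 (permutation p = 0.0431, adjusted over these 2 pairs 0.0862) and Spearman rho = 0.51 (permutation p = 0.0125). For Dbp and Sphk2 these were r = 0.32 (permutation p = 0.124) and rho = 0.34 (permutation p = 0.102). Without the 2 libraries farthest from the median of Nr1d1 or Dbp, r was 0.53 and 0.36.

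**Figure D1:**
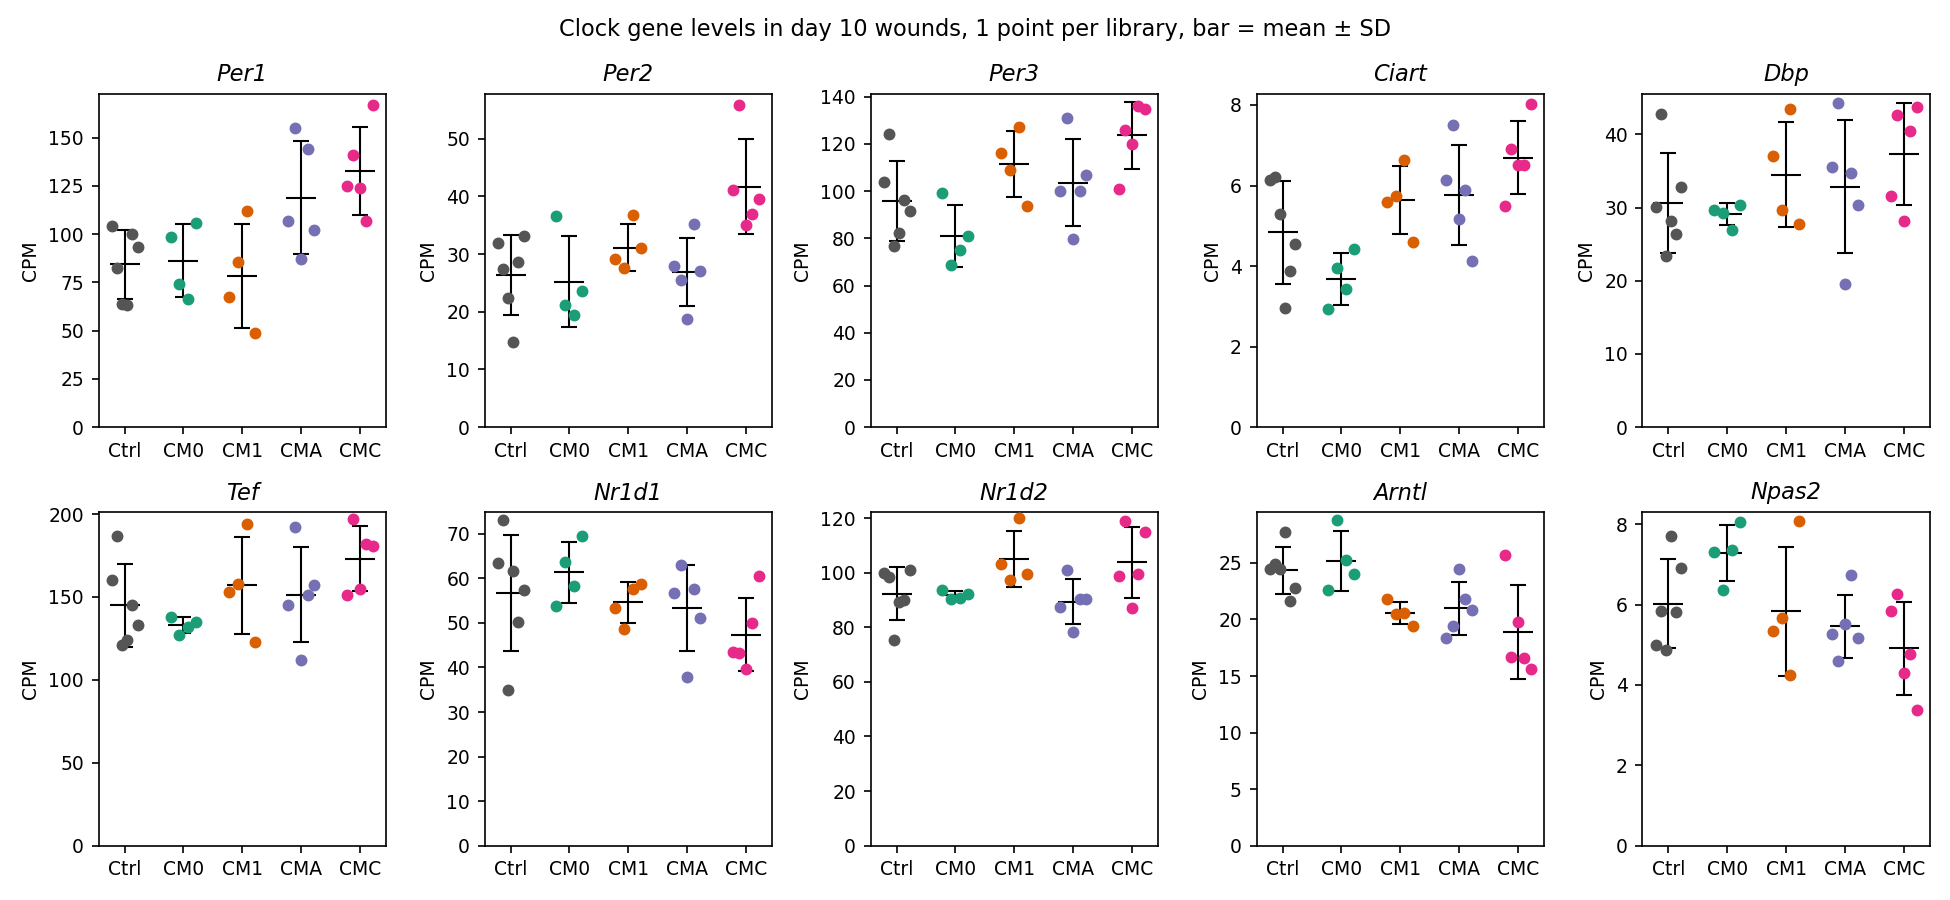
Level of each clock gene (CPM, axis from 0) in the 5 bandage groups, with 1 point per library and bars at the mean ± SD. For Per1 and Per2 the lowest CMC wound (107 and 35 CPM) lies above the highest Ctrl wound (104 and 33.2 CPM), while the groups overlap for the other 8 genes.

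The comparison of CMC with Ctrl held the widest differences from control for the clock genes, and none passed the test. In the model over all 5 groups, edgeR called 0 of 18978 genes at an adjusted p under 0.05 (0%) for CMC against Ctrl, members included. At an unadjusted p under 0.05 edgeR gave 1622 genes (8.55%), and 5 of the 10 members were among them. DESeq2 called 4 genes, none of them a member. Ctrl 3, Ctrl 4 and CM1 3 were also left out together, a choice made after seeing the data. Without them 4 members were at an unadjusted p under 0.05 in edgeR, against 3.73% of 19172 genes. These were Per1, Per2, Arntl and Nr1d1, so that Per3 and Ciart left the set and Nr1d1 entered it.

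Per1 and Per2, the period genes whose proteins close the feedback loop, had the 2 largest log2 fold changes of the members. Per1 was at 125, 141, 124, 107 and 167 CPM in the 5 CMC wounds, against a lowest, median and highest of 63.1, 87.9 and 104 CPM in Ctrl. The means were 133 ± 22.8 (SD, n = 5) and 84.4 ± 17.8 CPM (SD, n = 6), a log2 fold change of 0.65 (SE 0.20, edgeR adjusted p = 0.546). Every CMC wound was above every Ctrl wound, by a small margin at the edge. Per2 was at 41.1, 55.8, 35, 37 and 39.6 CPM in CMC, against 14.7, 28.1 and 33.2 CPM as lowest, median and highest of Ctrl. Its log2 fold change was 0.66 (SE 0.19, edgeR adjusted p = 0.546), again with no overlap. Groups that did not overlap, with CMC above, were found for 0.232% of genes tested and for 2 members, and groups with CMC below for 0.311% of genes and 0 members. The same 2 members did not overlap without Ctrl 3, Ctrl 4 and CM1 3, against 0.59% of genes, with log2 fold changes of 0.48 (Per1) and 0.46 (Per2).

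Per3, the period gene whose window held 2 D-boxes, was at 101, 126, 120, 136 and 135 CPM in CMC and between 76.7 and 124 CPM in Ctrl (median 93.9). Its log2 fold change was 0.36 (SE 0.13, edgeR adjusted p = 0.547). The groups overlapped through the CMC wounds at 101 and 120 CPM and the Ctrl wounds at 104 and 124 CPM. Ciart, a repressor of the CLOCK and BMAL1 pair, was at 5.5, 6.91, 6.52, 6.5 and 8.03 CPM in CMC and at 2.97 to 6.2 CPM in Ctrl (median 4.92). This gave a log2 fold change of 0.46 (SE 0.18, edgeR adjusted p = 0.547). Only the CMC wound at 5.5 CPM lay within the Ctrl range. The log2 fold change without Ctrl 3, Ctrl 4 and CM1 3 was 0.25 for Per3 and 0.37 for Ciart.

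Dbp and Tef, the output transcription factors that act on D-boxes, differed less. Dbp was at 31.6, 42.6, 28.2, 40.5 and 43.8 CPM in CMC and at 23.4, 29.2 and 42.8 CPM as lowest, median and highest of Ctrl. Its log2 fold change was 0.29 (SE 0.17, edgeR adjusted p = 0.665). For Tef, CMC wounds stood at 151 to 197 CPM and Ctrl wounds at 121 to 187 CPM, a log2 fold change of 0.26 (SE 0.13, edgeR adjusted p = 0.591). Both genes overlapped between the groups over most of their range. Leaving out the same 3 libraries gave log2 fold changes of 0.18 and 0.15.

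The 2 REV-ERB genes code for repressors of Arntl, and neither separated CMC from Ctrl. Nr1d1 was at 43.5, 43.2, 39.7, 50 and 60.5 CPM in CMC against a lowest, median and highest of 34.9, 59.5 and 73 CPM in Ctrl. The log2 fold change was -0.26 (SE 0.15, edgeR adjusted p = 0.648). Nr1d2 was at 87.1 to 119 CPM in CMC and at 75.4 to 101 CPM in Ctrl, with a log2 fold change of 0.17 (SE 0.09, edgeR adjusted p = 0.605). In Nr1d1 the lowest of all 24 wounds and the highest were both Ctrl wounds.

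Arntl and Npas2, the activators, were lower in mean in CMC. Arntl was at 25.7, 16.7, 19.8, 16.6 and 15.6 CPM in CMC, against 21.6, 24.5 and 27.7 CPM as lowest, median and highest of Ctrl. The means were 18.9 ± 4.12 (SD, n = 5) and 24.3 ± 2.08 CPM (SD, n = 6), a log2 fold change of -0.37 (SE 0.11, edgeR adjusted p = 0.546). The CMC wounds other than CMC 1 lay below every Ctrl wound. Npas2 was at 5.83, 6.27, 4.31, 4.76 and 3.37 CPM in CMC and at 4.88 to 7.7 CPM in Ctrl, with a log2 fold change of -0.30 (SE 0.17, edgeR adjusted p = 0.648). Leaving out Ctrl 3, Ctrl 4 and CM1 3 gave -0.32 for Arntl, -0.27 for Npas2 and -0.36 for Nr1d1.

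Over the 10 members the median absolute log2 fold change of CMC against Ctrl was 0.33, against 0.12 over all genes tested, and 7 members were higher and 3 lower in mean. The 3 other media lay nearer to control. That median was 0.09 for CM0 (0.11 over all genes), 0.18 for CM1 (0.13) and 0.11 for CMA (0.12). These comparisons share the Ctrl wounds.

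**Figure D2:**
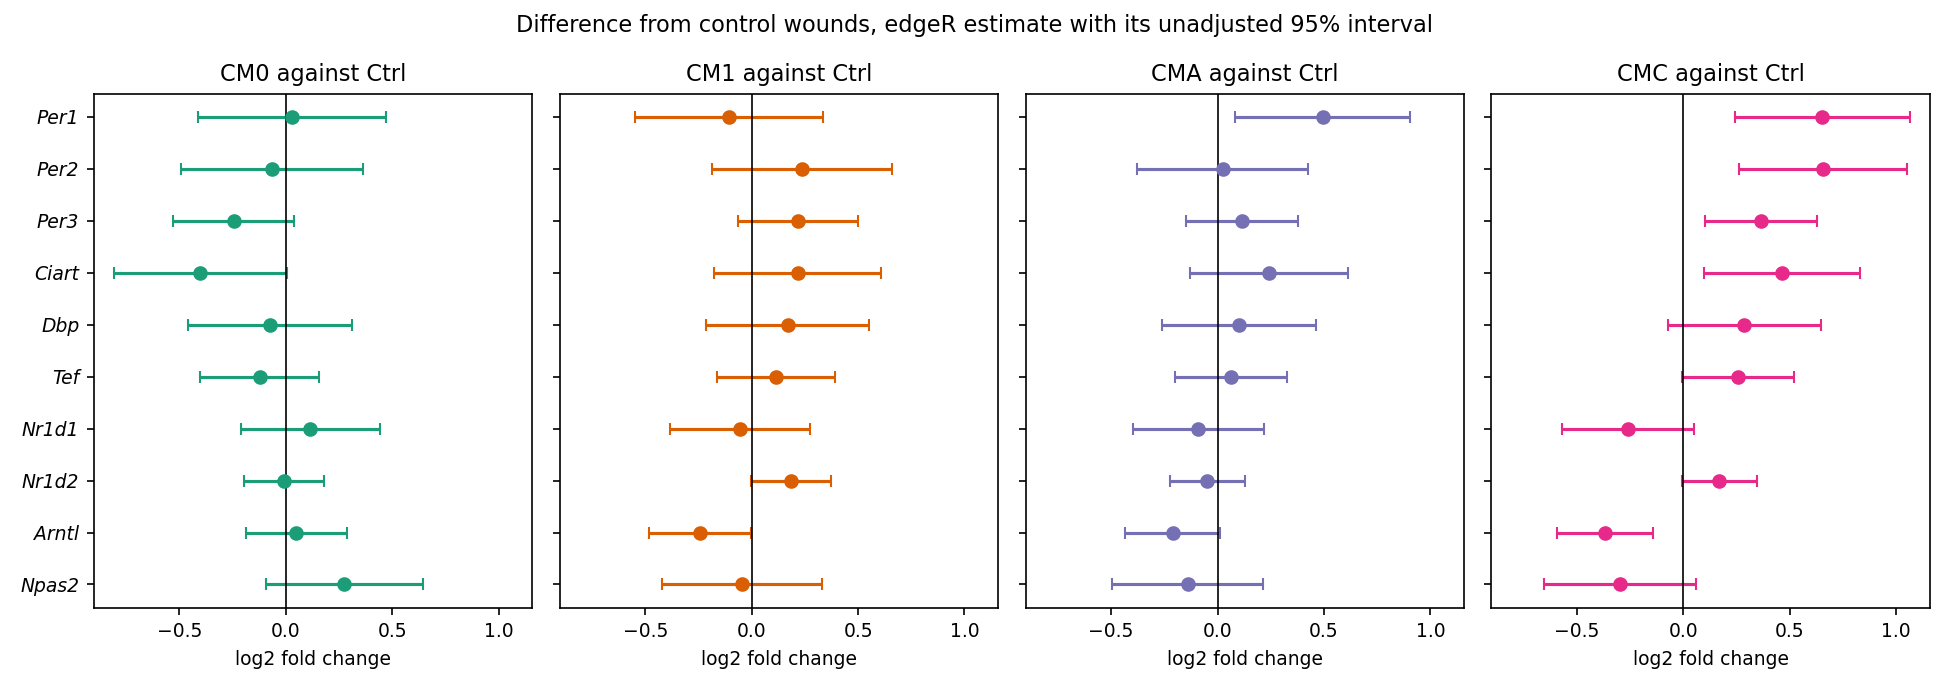
Log2 fold change of each clock gene against Ctrl in edgeR (horizontal axis) for CM0, CM1, CMA and CMC, with unadjusted 95% intervals. In the CMC panel the intervals of Per1, Per2, Per3, Ciart and Arntl exclude 0, in CM1 that of Arntl and in CMA that of Per1, but no gene passed adjustment over all genes.

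In CM0, edgeR called 0 of 18978 genes (0%), and 0 members were among the 933 genes (4.92%) at an unadjusted p under 0.05. Ciart was at 2.93, 3.94, 3.42 and 4.42 CPM in CM0, with a log2 fold change of -0.40 (SE 0.20, edgeR adjusted p = 0.946). This was the lowest group mean of that repressor, 3.68 ± 0.646 CPM (SD, n = 4), though all but the lowest value lay within the Ctrl range. Npas2 had its highest group mean there, 7.28 ± 0.699 CPM (SD, n = 4), at a log2 fold change of 0.27 (SE 0.18, edgeR adjusted p = 0.947).

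In CM1, 0 genes were called (0%), and 1 member, Arntl, was among the 1337 genes (7.04%) at an unadjusted p under 0.05. Arntl was at 21.8, 20.5, 20.6 and 19.4 CPM, a log2 fold change of -0.24 (SE 0.12, edgeR adjusted p = 0.702). One CM1 wound overlapped the Ctrl range. Per1 in CM1 ranged from 48.6 to 112 CPM, wider than the whole Ctrl range.

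In CMA, 0 genes were called (0%), and 1 member, Per1, was among the 1254 genes (6.61%) at an unadjusted p under 0.05. Per1 was at 107, 155, 86.9, 144 and 102 CPM, a log2 fold change of 0.49 (SE 0.20, edgeR adjusted p = 0.725). Per2 did not share this difference in CMA, at a log2 fold change of 0.02 (SE 0.19, edgeR adjusted p = 0.991), and its 5 wounds at 27.9, 25.5, 18.8, 35.2 and 27.1 CPM covered nearly the Ctrl range. No difference between the Per1 and the Per2 response was tested.

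No group difference passed the test for any difference among the 5 groups either. EdgeR called 0 genes (0%) there, and 6 of the 10 members were among the 882 genes (4.65%) at an unadjusted p under 0.05, each with an edgeR adjusted p of 0.929. The 6 were Per1, Per2, Per3, Ciart, Nr1d2 and Arntl. DESeq2 called 1 gene, which was no member. Without Ctrl 3, Ctrl 4 and CM1 3 the count was again 6 members, against 4.12% of genes.

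Group means of the members did not fall in 1 common order. Mean Per3 ran from CM0 (80.9 ± 13.1 CPM, SD, n = 4) through Ctrl (95.9 ± 17, n = 6), CMA (104 ± 18.6, n = 5) and CM1 (111 ± 14, n = 4) to CMC (123 ± 14.1, n = 5), and each step was smaller than the larger SD of the 2 neighbours. Per1 put CM1 lowest (78.4 ± 26.9 CPM, n = 4) and CMA next to CMC (119 ± 29.3, n = 5), again with neighbours closer than their SD except at the step from CM0 (86.1 ± 18.8, n = 4) to CMA. Arntl reversed the ends, with CM0 (25.2 ± 2.64 CPM, n = 4) and Ctrl highest and CMC lowest. Its step from CMA (21 ± 2.36, n = 5) to Ctrl exceeded the SD of both groups.

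CMC and CM0, the ends of the Per3 and Arntl orders but not of the Per1 order, were compared in the same model after the data had been seen. EdgeR called 0 of 18978 genes (0%) between them. At an unadjusted p under 0.05 stood 8 of the 10 members, against 706 genes (3.72%). Ciart had a log2 fold change of 0.87 (SE 0.20, edgeR adjusted p = 0.998), the largest of any member in any of the 10 comparisons, and Per3 one of 0.61 (SE 0.14, edgeR adjusted p = 0.998). In 4 members, Per1, Per3, Ciart and Tef, every CMC wound was above every CM0 wound (0.838% of genes), and in Npas2 every CMC wound was below (0.98% of genes). Arntl was at -0.42 (SE 0.12, edgeR adjusted p = 0.998) with 1 CMC wound inside the CM0 range. The other 5 comparisons between media also had 0 genes called by edgeR (0% each). At an unadjusted p under 0.05 they held 3 members for CM1 against CM0 (2.22% of genes), 5 for CMA against CM0 (3.14%), 2 for CMA against CM1 (4%), 1 for CMC against CM1 (2.71%) and 2 for CMC against CMA (6.16%).

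**Figure D3:**
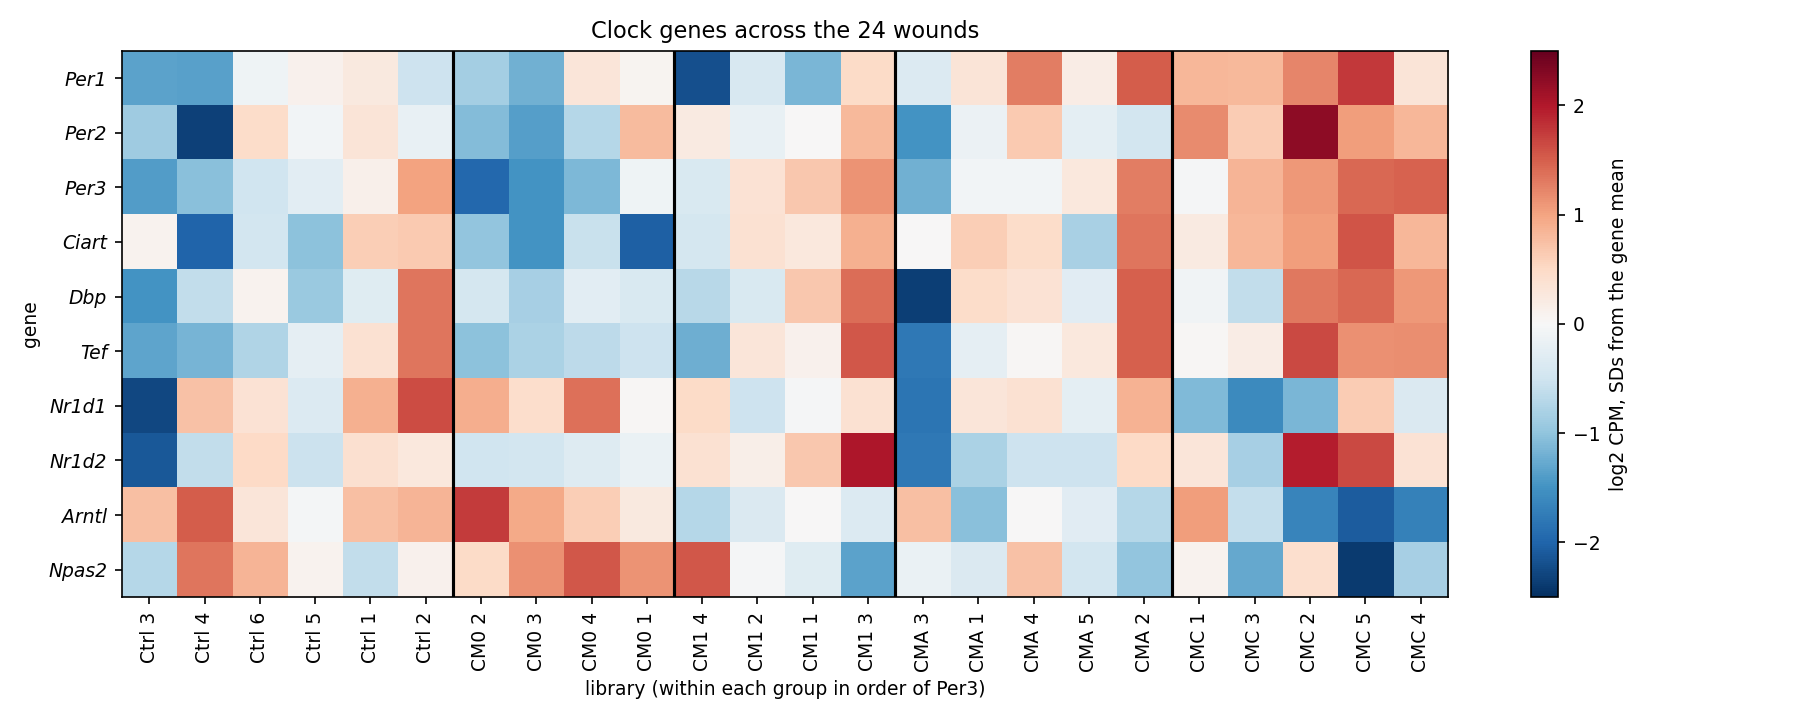
Log2 CPM of each clock gene (rows) in each of the 24 wounds (columns, grouped by bandage and ordered within each group by Per3), as SDs from the gene's mean. CMC 5 and CMA 2 are high in Per3, Dbp and Tef and low in Arntl and Npas2. Ctrl 2 is also high in Per3 (124 CPM), but its Arntl of 24.9 CPM is above the median of 21.8 CPM over the wounds. Ctrl 3 and CMA 3 are low in Dbp, Tef, Nr1d1 and Nr1d2 and above the mean in Arntl.

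Over the 24 wounds pooled across groups, most BMAL1-driven members varied together and opposite to Arntl and Npas2. These pooled values also hold the differences between groups. Of the 45 pairs of members, 33 had a Benjamini-Hochberg adjusted permutation p under 0.05 for Pearson r over the 24 libraries, 22 with positive and 11 with negative r. By Spearman rho 31 pairs did. All 11 negative pairs joined Arntl or Npas2 to one of the other 8 genes, out of 16 such pairs. Among those 8 genes 21 of 28 pairs passed, all positive, and 20 of those 21 lay among the 7 genes other than Nr1d1. With each group's mean subtracted, 18 of these 28 pairs passed, but only 2 of the 16 pairs with Arntl or Npas2. All libraries enter each pair with the same scaling, and the members were chosen with these data in view.

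The tightest pair was Per3 with Tef, at r = 0.90 (permutation p = 1e-05, the smallest the resampling can give, adjusted 0.00015) and rho = 0.92 (permutation p = 1e-05, adjusted 0.00015). Dbp with Tef was second in r, at 0.88 (permutation p = 1e-05, adjusted 0.00015) and rho = 0.79 (permutation p = 3e-05, adjusted 0.00027). Without the 2 libraries farthest from the median of the first gene, r was 0.91 and 0.84. The wounds that were highest in Tef, CMC 2 at 197, CM1 3 at 194, CMA 2 at 192 and Ctrl 2 at 187 CPM, came from 4 different groups. The same 4 wounds had Dbp at 42.6, 43.4, 44.3 and 42.8 CPM, all above the Dbp median of 30.4 CPM over the 24 wounds. Dbp with Nr1d2 had r = 0.80 (permutation p = 1e-05, adjusted 0.00015) and rho = 0.71 (permutation p = 0.0002, adjusted 0.00135), and r = 0.78 without the 2 farthest libraries.

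The strongest opposition was between Per3 and Arntl, at r = -0.75 (permutation p = 4e-05, adjusted 0.00036) and rho = -0.70 (permutation p = 0.00021, adjusted 0.00135). It was -0.66 without the 2 farthest libraries. The highest Arntl of all, 28.8 CPM in CM0 2, coincided with the lowest Per3, 68.5 CPM. The lowest Arntl, 15.6 CPM in CMC 5, stood beside a Per3 level of 135 CPM. Ciart with Npas2 had r = -0.73 (permutation p = 9e-05, adjusted 0.000579) and rho = -0.69 (permutation p = 0.00026, adjusted 0.00146), and r = -0.68 without the 2 farthest libraries. Arntl and Npas2 went together at r = 0.50 (permutation p = 0.0133, adjusted 0.0199) and rho = 0.47 (permutation p = 0.0199, adjusted 0.0309). That r was 0.35 without CM0 2 and CMC 5, and 0.36 (adjusted 0.127) without CMC 5 alone, so the relation of the 2 activators rests on that wound. With group means subtracted it was 0.20 (permutation p = 0.468, adjusted 0.514).

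**Figure D4:**
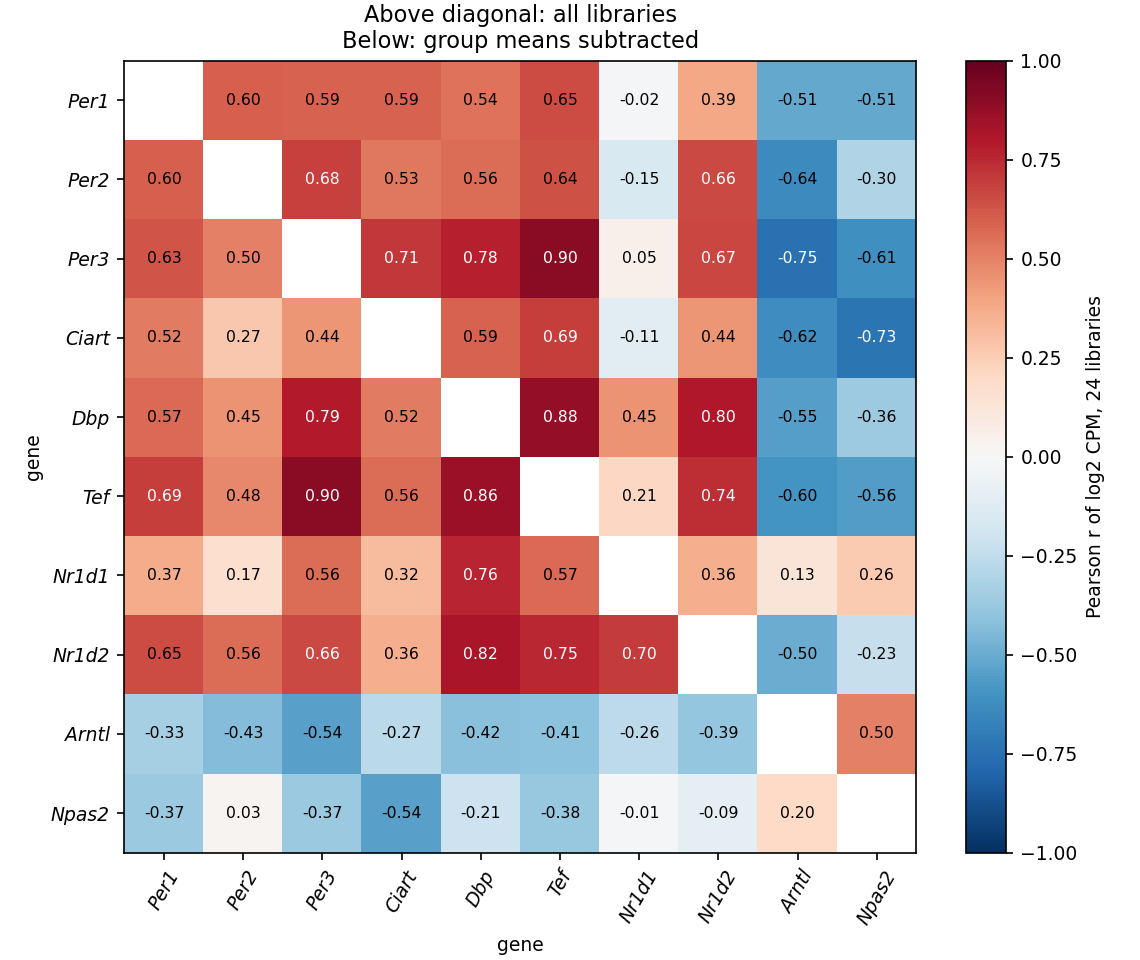
Pearson r of log2 CPM for each pair of clock genes over 24 libraries, for all libraries above the diagonal and with each group's mean subtracted below it. The block from Per1 to Tef is positive on both sides, its pairs with Arntl and Npas2 are negative above the diagonal, and Nr1d1 has values near 0 with Per1, Per3 and Ciart above the diagonal and is positive with Per3, Dbp, Tef and Nr1d2 below it.

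Part of this pattern lay between the groups and part within them. With each group's mean subtracted, 20 of 45 pairs passed, 18 positive and 2 negative. The 18 positive pairs all lay among the 8 genes other than Arntl and Npas2. Within groups Per3 and Tef kept r = 0.90 (permutation p = 1e-05, adjusted 0.00045) and Dbp and Tef had r = 0.86 (permutation p = 7e-05, adjusted 0.00101). The 2 negative pairs that passed within groups were Per3 with Arntl, r = -0.54 (permutation p = 0.00653, adjusted 0.0222), and Ciart with Npas2, r = -0.54 (permutation p = 0.00692, adjusted 0.0222). Of the 16 pairs across the arms, 15 had a negative sign within groups. Dbp with Arntl was at r = -0.55 pooled (permutation p = 0.00551, adjusted 0.00992) and -0.42 within groups (permutation p = 0.055, adjusted 0.0917). Without the 5 CMC wounds, a choice made after seeing the data, 18 of 45 pairs passed.

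Nr1d1 stood apart from the other BMAL1-driven genes in the pooled data. Only 1 of its 9 pairs passed, with Dbp, at r = 0.45 (permutation p = 0.0262, adjusted 0.0369) and rho = 0.32 (permutation p = 0.127, adjusted 0.167). That r was 0.28 without CMA 2 and CMA 3, so the pooled relation rests on those wounds, and 0.39 without Ctrl 3, Ctrl 4 and CM1 3. Leaving out CMA 2, CMA 3, CMC 5, Ctrl 2 or Ctrl 3 alone also lost the call, with r down to 0.325 (adjusted 0.162, without CMA 3). Within groups 4 pairs of Nr1d1 passed. They were with Dbp at r = 0.76 (permutation p = 0.00013, adjusted 0.00117), Nr1d2 at 0.70 (permutation p = 0.00151, adjusted 0.00634), Tef at 0.57 (permutation p = 0.0121, adjusted 0.0321) and Per3 at 0.56 (permutation p = 0.0156, adjusted 0.0369). Pooled over groups, Nr1d1 and Nr1d2 had r = 0.36 (permutation p = 0.0813, adjusted 0.102), which was -0.03 without CMA 3 and Ctrl 3. Nr1d1 and Per3 had a pooled r = 0.05 (permutation p = 0.812, adjusted 0.831). In CMC, Nr1d1 had its lowest group mean, 47.4 ± 8.22 CPM (SD, n = 5), while Per3, Tef and Dbp had their highest.

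**Figure D5:**
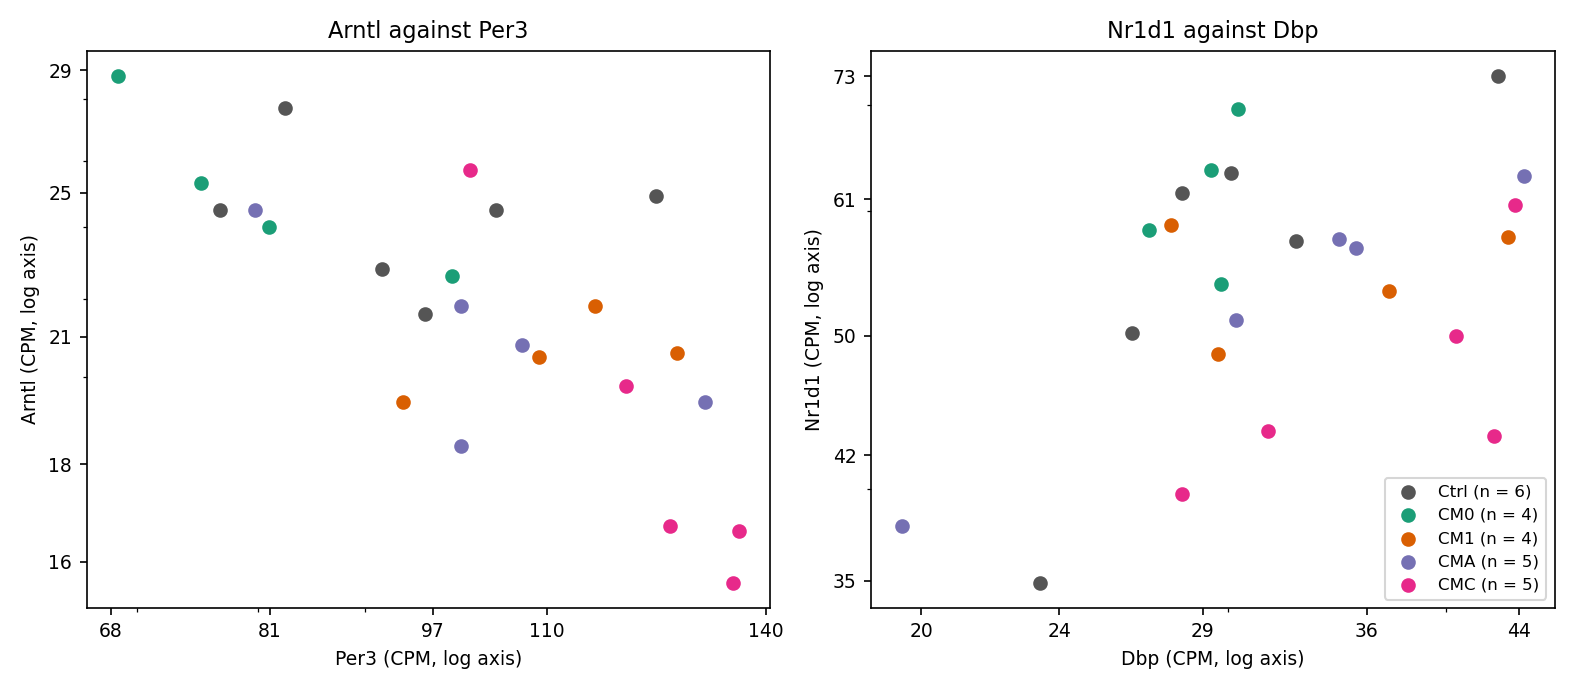
Arntl against Per3 (left) and Nr1d1 against Dbp (right), in CPM on log axes, with 1 point per library and colours for the 5 groups. Arntl tends to fall along Per3 from CM0 at upper left to CMC at lower right, apart from CMC 1, at 101 CPM in Per3 and 25.7 CPM in Arntl. In the right panel 4 of the 5 CMC points lie below the points of other groups at like Dbp levels.

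Against all other genes, Dbp and Arntl were used as references of the 2 arms. Spearman rho with Dbp was above 0.5 for 6 of the 9 other members and for 3.01% of 18977 genes. It was below -0.5 for 0 members and 2.22% of genes. With Arntl, rho was below -0.5 for 5 of 9 members and 0.522% of genes, and above 0.5 for 0 members and 0.632% of genes. Per3 ranked second lowest of all genes in rho with Arntl, at -0.70, and Tef sixth from the top with Dbp, at 0.79.

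The genes most like Dbp by rho over the 24 libraries were C7 (0.83), Igfbp3 (0.81), Hp (0.80), Lims2 (0.79) and Col4a3 (0.79). Those most opposed to it were Shkbp1 (-0.78), Naa40 (-0.78), Hnrnpa3 (-0.77), Trim28 (-0.77) and Mcm4 (-0.76). With Arntl the highest were Sp1 (0.76), Ddias (0.75), Ska2 (0.70), Hist1h2ag (0.69) and Spc24 (0.65). The lowest with Arntl were Zhx3 (-0.72), Per3 (-0.70), Sla (-0.70), Pmepa1 (-0.70) and Gm16273 (-0.68). These are the extremes of a ranking of 18977 genes and carry no test.

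Other genes of the clock, a list of 24 that held core factors, kinases, ubiquitin ligases and rhythmic outputs, were all tested. None of the 24 passed in a comparison with Ctrl by edgeR. In CMC, 17 were higher and 7 lower in mean, with a median log2 fold change of 0.12 against -0.01 over all genes, and 4 were at an unadjusted p under 0.05, against 8.55% of all genes. Those 4, named after their values were seen, were Wee1, Tspan4, Rorb and Timeless. Wee1, a cell cycle kinase gene with E-box control, was at 36.1 ± 5.21 CPM in CMC (SD, n = 5) and 22.6 ± 3.06 CPM in Ctrl (SD, n = 6), a log2 fold change of 0.67 (SE 0.14, edgeR adjusted p = 0.4). It was 1 of the 4 genes that DESeq2 called in this comparison. Tspan4 was at 0.41 (SE 0.13, edgeR adjusted p = 0.547) and Timeless at -0.37 (SE 0.12, edgeR adjusted p = 0.547). Timeless was also lower in mean in the other media, at -0.48 in CM0, -0.45 in CM1 and -0.29 in CMA (edgeR adjusted p = 0.946, 0.695 and 0.725). Rorb, a nuclear receptor gene of the ROR family, was at 1.23 (SE 0.38, edgeR adjusted p = 0.546) from a low level of 2.66 ± 0.838 CPM in Ctrl (SD, n = 6). Its values were alike in the other media, at 1.25 in CM0, 1.17 in CM1 and 0.94 in CMA (edgeR adjusted p = 0.946, 0.695 and 0.725). The counts at an unadjusted p under 0.05 were 6 of 24 in CM0 (4.92% of all genes), 2 of 24 in CM1 (7.04%) and 6 of 24 in CMA (6.61%). Clock itself, the partner of BMAL1, was at 105 ± 9.88 CPM in Ctrl (SD, n = 6) and 110 ± 6.09 CPM in CMC (SD, n = 5).

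With Dbp, 5 of these 24 genes passed for Pearson r, all positive. The highest in rho was Cry2, a partner of the PER proteins, at r = 0.76 (permutation p = 2e-05, adjusted 0.00024) and rho = 0.77 (permutation p = 2e-05, adjusted 0.00048). Hlf, the third member of the D-box family, had r = 0.77 (permutation p = 2e-05, adjusted 0.00024) and rho = 0.72 (permutation p = 8e-05, adjusted 0.00096). Without CMA 2 and CMA 3, r was 0.73 for Cry2 and 0.65 for Hlf. Nampt and Fmo2 passed as well. The lowest rho belonged to Csnk1d (-0.32, permutation p = 0.125), Timeless (-0.27, permutation p = 0.202) and Usp2 (-0.04, permutation p = 0.871), none of which passed. Within groups 6 genes passed with Dbp, all positive. With Arntl 0 of the 24 genes passed, pooled or within groups.

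Lists of other cell types and of hormone response were measured in the same libraries, and their part in the clock gene values was not tested. Of 12 genes known to respond to glucocorticoids, hormones that also act on Per1, 10 were higher in mean in CMC than in Ctrl. None passed by edgeR, DESeq2 called 1 (Cebpd), 6 were at an unadjusted p under 0.05 against 8.55% of all genes, and the median log2 fold change was 0.32. Their summed level ran from 759 to 1110 CPM in CMC and from 531 to 830 CPM in Ctrl. In CM0, CM1 and CMA the ranges were 632 to 702, 572 to 827 and 596 to 1040 CPM. Of the 12 genes, 10, 9 and 10 were also higher in mean there than in Ctrl. Their median log2 fold changes were 0.05, 0.11 and 0.11, and in each of these media 0 were at an unadjusted p under 0.05. Of 10 immediate early genes, 6 were higher in CMC and 0 were at an unadjusted p under 0.05.

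Skin and wound markers were present in each group, and no listed gene was at 0 in all libraries of a group. In CMC against Ctrl edgeR called none of the genes of any list. Hair follicle genes (5 of 8 tested) were all lower in mean, at a median log2 fold change of -5.15. Their summed level ran from 4.13 to 6670 CPM in Ctrl and from 6.48 to 106 CPM in CMC, with a median of 18.2 CPM in both. All 5 melanocyte genes were lower, at a median of -2.64, with sums of 10.3 to 438 CPM in Ctrl and 9.98 to 24 CPM in CMC. All 8 adipocyte genes were higher, at a median of 0.33, with sums of 1920 to 4050 CPM in Ctrl and 2230 to 4050 CPM in CMC. Higher in mean were also 7 of 8 fibroblast genes (median 0.23), 7 of 7 macrophage genes (0.20), 6 of 7 basal keratinocyte genes (0.06), 5 of 6 wound keratinocyte genes (0.67), 4 of 6 endothelial genes (0.08) and 2 of 3 tested erythrocyte genes (0.71). Lower in mean were 9 of 10 skeletal muscle genes (-0.50), 4 of 6 neutrophil genes (-0.23) and 4 of 5 Schwann cell genes (-0.50). At an unadjusted p under 0.05, which 8.55% of all genes reached, were 5 hair follicle, 5 melanocyte, 3 fibroblast, 2 erythrocyte, 1 macrophage and 1 Schwann cell genes, and 0 of the other lists. Several of these differences were not particular to CMC. In CM0, CM1 and CMA all 5 hair follicle genes tested were also lower than in Ctrl, at medians of -3.00, -5.11 and -1.99. All 5 melanocyte genes were lower there too, at -1.27, -2.43 and -1.28. Wound keratinocyte genes were higher in 6, 5 and 6 of 6, at medians of 0.75, 0.93 and 0.93.

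Across the 24 libraries, 3 of these 14 lists had a mean log2 level that passed with Dbp, adjusted over 28 relations. They were adipocyte, at r = 0.62 (permutation p = 0.00118, adjusted 0.0296) and rho = 0.56 (permutation p = 0.0054, adjusted 0.0504), basal keratinocyte, at r = 0.59 (permutation p = 0.00218, adjusted 0.0296) and rho = 0.66 (permutation p = 0.00054, adjusted 0.0151), and the glucocorticoid list, at r = 0.58 (permutation p = 0.00317, adjusted 0.0296) and rho = 0.61 (permutation p = 0.00217, adjusted 0.0304). Without CMA 2 and CMA 3, r was 0.54, 0.56 and 0.58. None passed with each group's mean subtracted, at r of 0.60, 0.63 and 0.51. None passed without Ctrl 3, Ctrl 4 and CM1 3 together, and none without Ctrl 3 or without CMC 5 alone, and 1 passed without CM1 3 alone. With Arntl 0 of the 14 lists passed.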

How the data were processed

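The authors deposited 1 table of raw counts per gene for each of the 24 libraries. Per the labels' protocols, total RNA from snap-frozen wounds was depleted of ribosomal RNA and made into libraries with a NEBNext Ultra kit, taken here as carrying no strand. Per the submitters' processing notes, bcl2fastq 2.17, FastQC, cutadapt, STAR, featureCounts and DESeq2 were used, with GRCm38. The sources used here do not name the authors' annotation release. Symbols, exon lengths and overlaps come from GENCODE M21, which names 54079 of 54232 gene identifiers. Promoter windows come from RefSeq on GRCm38.p6.

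Counts were tested with edgeR 4.0.16 (R 4.3.3) by its quasi-likelihood test after filterByExpr and TMM scaling, in 1 model of all 24 libraries with 1 term per group, and p-values were adjusted by Benjamini-Hochberg over 18978 genes with a threshold of 0.05. Correlations used log2 CPM with a prior count of 2 and 100000 permutations, adjusted within each family. Alternatives were DESeq2 1.42.0, limma 3.58.1 voom with sample quality weights, RLE factors, no filter, 2-group fits and left-out libraries. The fit was tested on simulated data. No 2 libraries agreed within sampling noise. Replicate numbers follow accession order, and p-values measure only the spread between these libraries.

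Members and gene lists were chosen with earlier results of these data known. Named are the members, the other clock genes with the 3 highest and 3 lowest rho with Dbp, and the 5 highest and 5 lowest genes in rho with Dbp and with Arntl. One gene that this rule takes is not reported here.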

Additional observations from a re-analysis of the deposited data

How the results depend on the processing

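None of the 10 members passed in a comparison with Ctrl under any alternative, and their 10 fold changes of CMC against Ctrl kept their sign in all 17 alternatives. Of all genes, edgeR called 0 in each comparison. DESeq2 called 1 in CM0, 1 in CM1, 4 in CMC and 1 for any difference. Leaving out 1 library gave 0 to 1 in CM0, the 1 without CM0 2. Of the 45 pairs, 33 passed, against 20 with group means subtracted, 18 without the CMC libraries and 27 to 34 with 1 library left out. Of the other clock genes, 5 passed with Dbp or Arntl, against 3 without Ctrl 3, Ctrl 4 and CM1 3, 3 without CMC and 4 to 7 with 1 left out. Of the marker lists 3 passed, against 0 without those 3 libraries, 1 without CMC and 0 to 3 with 1 left out.

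Some fold changes changed sign, the largest of them 0.2351 in the main fit, for Per2 in CM1. With voom and sample quality weights, Per2 in CM0 was 0.0196, against -0.0657. Without Ctrl 3, Ctrl 4 and CM1 3, Per1 in CM0 was -0.1415. The values in CM1 were then -0.0522 for Per2, -0.0698 for Dbp, -0.1113 for Tef and 0.1037 for Npas2. Those in CMA were -0.1748 for Per2, -0.0056 for Per3, -0.0112 for Dbp and -0.0483 for Tef. Nr1d1 with Arntl had r = -0.2615 with group means subtracted, against 0.13 pooled. Leaving out 1 library gave, in CM0, -0.0321 to 0.0916 for Arntl, -0.1456 to 0.0426 for Dbp, -0.0657 to 0.0131 for Nr1d2, -0.0831 to 0.1313 for Per1 and -0.3087 to 0.0383 for Per2. In CM1 it gave -0.2363 to 0.0805 for Npas2, -0.1689 to 0.0313 for Nr1d1, -0.3265 to 0.0656 for Per1 and -0.0027 to 0.2152 for Tef. In CMA it gave -0.0308 to 0.2402 for Dbp, -0.2039 to 0.0105 for Nr1d1, -0.0953 to 0.1290 for Per2 and -0.0378 to 0.1539 for Tef. The cause was not tested.

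Ciart and Npas2 rest on the fewest reads, down to 22 and 37 in 1 library. No paired analysis was possible because the labels number the samples without pairing them across groups.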
